A study of Mus musculus with 6 samples.

Results

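Cultured mouse keratinocytes lacking both Ovol1 and Ovol2 were compared with control keratinocytes, and the genes that differed were described by function, outside the keratin, junction and barrier genes that usually define an epithelium. The members were the 2 arrays titled Ovol1/2 DKO (double knockout) and the 2 titled Control, 4 of the 6 arrays of the series. Keratinocytes, the epithelial cells of the epidermis, had been isolated from skin of C57BL/6 E18.5 embryos, near the end of gestation, grown for several days, given calcium, which starts their differentiation, and kept for several days more. Each array held total RNA of 2 pooled mice, and the labels call the arrays of a group biological replicates.

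Control animals were Ovol2flox/+; Ovol1+/- or Ovol2flox/+;K14-Cre, so that every control carried 1 floxed Ovol2 allele and either 1 lost Ovol1 copy or the Cre transgene. The labels do not say which of these genotypes was on which array. DKO animals were Ovol2flox/-;K14-Cre; Ovol1-/-. The K14 promoter drives Cre in basal keratinocytes, and any other cell type of these cultures would have kept the floxed Ovol2 allele. The remaining 2 arrays, of Ovol1-/- animals (Ovol1 KO), were used for the spread between arrays and as a further set of levels. All 6 arrays are labelled female and calcium-treated.

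Ovol1 and Ovol2 encode zinc finger proteins that bind DNA and mostly repress their targets. In skin they act when basal keratinocytes stop dividing and differentiate, and Ovol2 is known for holding down Zeb1, a repressor of epithelial genes that binds E-boxes with the letters CACCTG. Keratinocytes also take up solutes, make lipids, sense nucleotides and proteases, and signal to nerves, vessels and immune cells, and it is these functions that are followed here.

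Levels are log2(intensity + 16) after quantile normalization, 1 probe set per gene, with values in the order array 1, array 2. Changes are DKO minus control on that scale, with limma's standard error (SE), and a gene is called at an adjusted p below 0.05 over all 19938 genes with a single symbol. Median deposited intensities ran from 174.2 to 203.6 per array. The table has no detection call, so a level near 5 or 6 was not separated from background, and levels of different genes are not compared.

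The arrays differed in more than the Ovol genotype. Xist, the RNA of the inactive X chromosome, stood at 4.71 and 4.65 in control, 4.59 and 11.97 in Ovol1 KO and 12.12 and 12.26 in DKO, and the Y-linked Kdm5d at 14.7 and 14.7, 14.7 and 7.5, and 7.53 and 7.64. Control 1, control 2 and Ovol1 KO 1 thus went against their female label, and between control and DKO alone the sex-linked split and the genotype cannot be told apart. With the Xist level as a covariate limma called 3 genes higher (Ackr4, Gm9696 and Skint3) and 5 lower (Dynap, Gpr50, Igfbp7, Ltf and Tspan1). All 639 genes of the fit without it kept their sign. Within groups the Xist level varied mainly between the 2 Ovol1 KO arrays. Their spread also entered the calls, so the kept signs were likely beforehand and are no check. The high-Xist array Ovol1 KO 2 lay nearer the control mean than the DKO mean in 185 of the 188 genes called higher and 441 of the 451 called lower. For Ovol1 KO 1 these counts were 187 and 446. The Ovol1 KO pair entered the spread of the fit, so genes that split this pair were less likely to be called. These counts therefore cannot tell the sex-linked split from the genotype. Of 739 genes tested on the X chromosome 25 were called, and of 9 on the Y chromosome 0, beside 639 of 19938 over all genes. The same limit holds for these counts.

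The keratinocyte marker Krt5 was high on every array used, at 13.68 and 13.74 in control and 13.8 and 13.94 in DKO. Of 12 keratinocyte markers 2 were called higher and 0 lower. These were Krt1, from 9.48 and 9.33 to 14.7 and 12.4, and Krt10, from 9.77 and 8.89 to 13.93 and 13.01. The Krt1 call was lost without either Ovol1 KO array. None of the 8 immune, 4 Merkel cell, 4 muscle and 5 endothelial markers was called, with 0, 0, 1 and 2 of them at an unadjusted p below 0.05. Of 2 nerve and Schwann cell markers Mbp was called, at 10.7 and 10.6 in control and 9.53 and 9.46 in DKO, and it fell by 1.15 (SE 0.16, limma adjusted p = 0.0147), a call lost without control 1 or either DKO array. The part of other cell types in the results was not tested. The fibroblast collagens Col1a1, Col1a2 and Col3a1 lay between 8.0 and 8.91 on the 4 arrays, while Pdgfra fell by 1.06, a call lost without control 1 or either DKO array. Of the same list Thy1 went from 9.86 and 8.12 to 10.96 and 11.23 and Dcn from 7.22 and 7.72 to 7.87 and 8.73, without overlap and without a call. The melanocyte markers Dct, Pmel, Tyr and Tyrp1 were higher on array 1 than on array 2 of both groups, with Tyrp1 at 10.52 and 5.81 in control and 8.46 and 5.72 in DKO. Mitf stood at 9.92 and 9.08 in control and 8.6 and 8.48 in DKO, and limma called none of the 7 melanocyte markers, with 1 at an unadjusted p below 0.05. The targeted genes were not called. Ovol1 changed by 0.53 (SE 0.21, limma adjusted p = 0.301) and Ovol2 by 0.04, and whether their probes lie in the deleted parts is not given in the sources used here.

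In DKO, 188 of 19938 genes were called higher, which is 0.943%, and 451 were called lower, which is 2.26%. The 2 groups did not overlap for any of these 639 genes. Of them 611 lay outside the keratin, junction and barrier lists, 181 higher and 430 lower, and the calls included 164 rises and 383 falls of at least 2-fold. On the criterion of separation alone, 357 genes (1.79%) were higher and 752 (3.77%) lower by at least 2-fold with no overlap, and 562 of these were not called. At any size of change, 4601 genes (23.1%) were higher and 4294 (21.5%) lower with no overlap, so separation of 2 arrays from 2 was common in itself. The median change over all genes was 0.024.

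How much a call rested on 1 array was checked by leaving out each of the 6 in turn. The call was kept throughout by 160 genes, 44 higher and 116 lower. Unless a sentence says otherwise, each gene whose change is given below is among these, and a number kept is given for most lists. Genes marked post hoc were picked once their values were known, outside the naming rule. At the threshold itself, Coch, Cdk18 and Ddb2 lay just inside, with limma adjusted p from 0.0498 to 0.0499, and Tfap2c, Bcl2l1 and Zdhhc15 just outside, from 0.0503 to 0.0504.

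**Figure D1:**
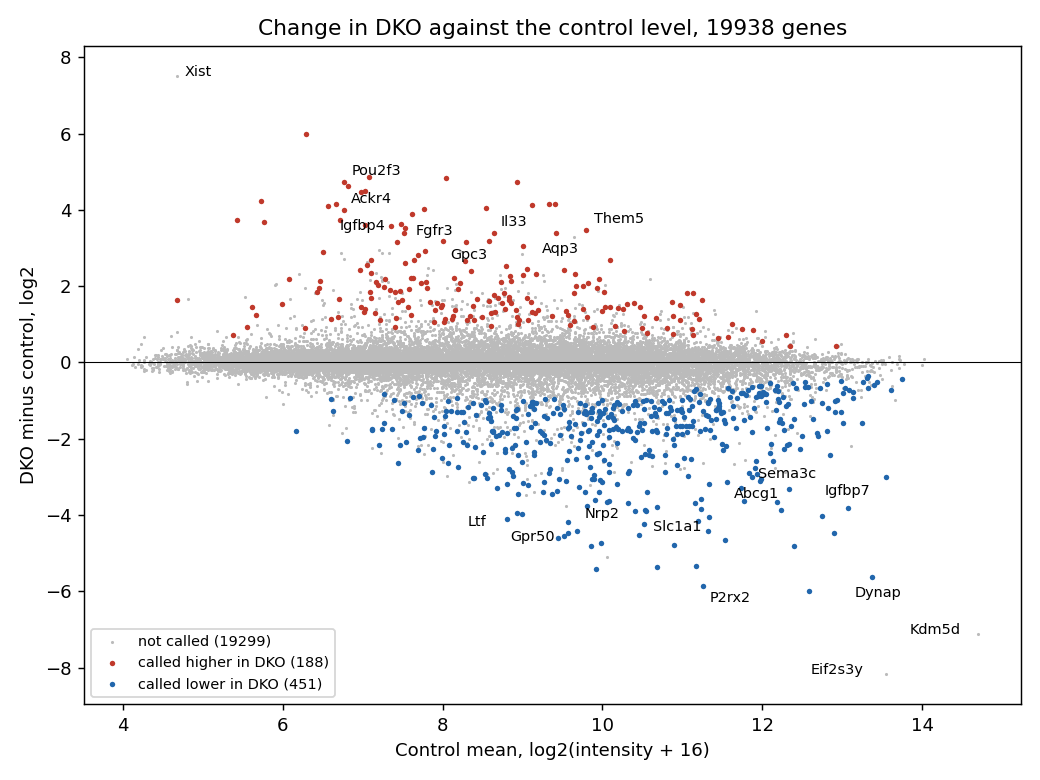
Change in DKO against control (vertical axis, log2 units) by the control level (horizontal axis, mean log2(intensity + 16) of 2 arrays), 1 point per gene, with the 188 genes called higher in red, the 451 called lower in blue and the others in grey. Among the labelled calls P2rx2 lies lowest, at -5.85, and the sex-linked Xist, Kdm5d and Eif2s3y lie far out without being called.

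Solute carriers, the largest list, were called at shares near those of all genes. Of 375 genes, whose proteins move small molecules across membranes, 4 were called higher (1.07%) and 11 lower (2.93%), and 1 and 3 of these kept their call throughout. The list's median was 0.025, beside 0.024 for all genes. Slc1a1, a sodium-driven transporter that takes up glutamate and aspartate, stood at 10.75 and 10.28 in control, 6.38 and 6.18 in DKO. It fell by 4.23 (SE 0.22, limma adjusted p = 0.000673), and no DKO array came near the control levels. A second glutamate transporter, Slc1a3, moved the other way, from 7.41 and 7.74 to 9.55 and 9.44, a rise of 1.92 (SE 0.24, limma adjusted p = 0.0113) that was no longer called without either DKO array (1.76 to 2.08). Slc1a3 was named post hoc.

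Slc44a4, a transporter of the choline transporter-like family, fell by 3.04 from 8.51 and 8.26 to 5.57 and 5.12 (SE 0.21, limma adjusted p = 0.00152). Slc25a43, a member of the mitochondrial carrier family, fell by 2.0 from 10.92 and 10.84 to 8.84 and 8.92 (limma adjusted p = 0.00245). Slc46a2, of the proton-coupled folate transporter family, was the only solute carrier whose rise kept its call throughout, by 1.96 from 6.66 and 6.26 to 8.58 and 8.25 (limma adjusted p = 0.00603). Among 48 ABC transporters 0 were called higher and 2 lower, with a median of 0.012. Of these Abcg1, which exports cholesterol from cells, stood at 11.63 and 11.49 in control and at 8.63 and 8.23 in DKO, and it fell by 3.13 (SE 0.25, limma adjusted p = 0.00205). The 20 measured genes of cholesterol synthesis had a median of -0.094, with 0 calls by limma and 5 genes at an unadjusted p below 0.05.

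Channels moved both ways. In the list of 135 calcium, sodium, chloride, water and TRP channel genes, 3 were called in each direction and 3 rises and 2 falls kept their call. Aqp3, the channel through which keratinocytes take up water and glycerol, rose by 3.4 from 9.56 and 9.28 to 13.01 and 12.62 (SE 0.35, limma adjusted p = 0.00557). Ovol1 KO 2, at 10.64, lay above both control arrays for this gene, and both DKO arrays lay above it. P2rx2, a cation channel opened by extracellular ATP, stood at 11.41 and 11.1 in control and 5.61 and 5.2 in DKO, the largest called fall outside the epithelial lists. A receptor for the nucleotide UTP, P2ry4, which couples to G proteins, rose by 1.46 from 6.92 and 7.02 to 8.35 and 8.52 (SE 0.17, limma adjusted p = 0.00751). Of 42 purine signalling genes 1 was called higher and 2 lower.

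Of the potassium channel list, Kcnn4, a potassium channel gated by intracellular calcium, was the 1 call among 88 genes, whose median was 0.023, and fell by 2.86 from 10.25 and 9.92 to 7.46 and 6.98 (SE 0.23, limma adjusted p = 0.00224). Lrrc26, a subunit that lets calcium-gated BK channels open at rest, stood at 10.86 and 10.22 in control and 7.04 and 6.25 in DKO and fell by 3.9 (SE 0.34, limma adjusted p = 0.00297).

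The Clca family, secreted proteins that modulate chloride currents, changed in opposite directions within a single gene cluster. Clca3a1 rose by 3.68, from 6.1 and 5.43 to 8.96 and 9.93 (limma adjusted p = 0.00478), and Clca3a2 by 4.1, from 6.78 and 6.34 to 10.11 and 11.21 (limma adjusted p = 0.00318). Their neighbour Clca3b fell by 4.78, from 11.5 and 10.29 to 6.46 and 5.78 (limma adjusted p = 0.00329). The copies are close in sequence, and how well their probe sets separate them was not tested. All 4 members of the list of 43 calcium pumps, sensors and buffers that were called were lower (9.3%), with a list median of -0.033. Over all genes 0.943% were called higher and 2.26% lower. Anxa1, a calcium-dependent membrane-binding protein, alone kept its call, a small and even fall by 0.58 from 13.39 and 13.41 to 12.83 and 12.8 (SE 0.06, limma adjusted p = 0.00624).

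**Figure D2:**
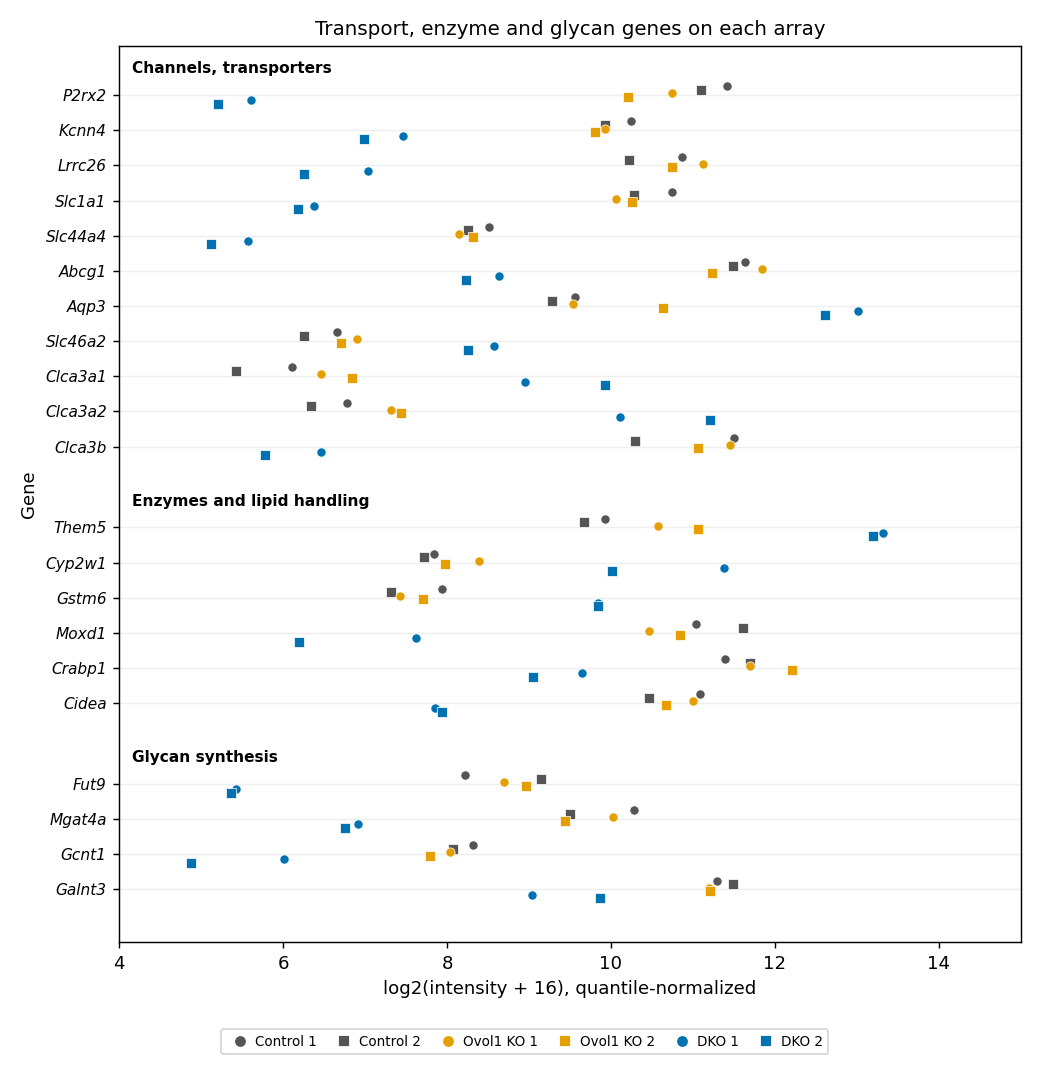
Levels of 21 transport, enzyme and glycan genes (horizontal axis, quantile-normalized log2(intensity + 16)) on each array, 1 row per gene, with circles for array 1 and squares for array 2 of control (grey), Ovol1 KO (orange) and DKO (blue). In every row both blue points lie outside the range of the grey ones, and Clca3a1 and Clca3a2 move to the right while Clca3b moves to the left.

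Lipid genes also changed in both directions. Of 111 genes of fatty acid and triglyceride metabolism 6 were called higher and 4 lower, 2 and 0 of them throughout, with a median of 0.029. The 2 kept rises were neighbouring members of the arylacetamide deacetylase family of lipases, Aadacl2fm1, from 6.21 and 6.36 to 12.67 and 11.89 (rise 5.99, SE 0.27, limma adjusted p = 0.000282), and Aadacl2, from 5.83 and 5.62 to 10.28 and 9.64 (rise 4.23, SE 0.34, limma adjusted p = 0.00213). No called gene outside the epithelial lists rose by more than Aadacl2fm1. Their relative Aadac rose by 2.14, a call lost without DKO 1 (1.75 to 2.54 over the arrays left out). Them5, a thioesterase that splits acyl-CoA in mitochondria, was already at 9.93 and 9.67 in control and stood at 13.32 and 13.2 in DKO, a rise of 3.46 (SE 0.19, limma adjusted p = 0.000729). Cidea, a protein of lipid droplets that is high in sebaceous glands, went the other way, from 11.09 and 10.46 to 7.85 and 7.94, and fell by 2.88 (SE 0.25, limma adjusted p = 0.00304). The other sebaceous genes gave no common direction. Of 17 sebaceous genes measured, Cidea included, 0 were called higher and 2 lower, with a median of 0.012. The second call was Prdm1, which fell by 2.3 (limma adjusted p = 0.0222) and did not keep its call throughout. By separation and a 2-fold change alone, 1 of the 17 was higher and 3 were lower. Scd1, Fasn and Pparg changed by 0.01, 0.05 and -0.0.

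Of 36 prostaglandin and leukotriene genes 3 were called higher (8.33%) and 0 lower, with a median of -0.046. Over all genes 0.943% were called higher and 2.26% lower. By separation and a 2-fold change alone, 3 genes of the list were higher and 2 lower. The called rises were those of Pla2g2f, a secreted phospholipase A2 of the epidermis (rise 3.18), Hpgds, which makes prostaglandin D2 (rise 2.28), and Ltb4r1, the leukotriene B4 receptor (rise 1.2). The calls for Pla2g2f and Hpgds were lost without either DKO array, with changes from 2.44 to 3.91 and from 1.91 to 2.64, and that for Ltb4r1 without any array but control 2 (0.97 to 1.42). Pla2g2d, the neighbour of Pla2g2f, rose by 3.16 from 7.95 and 6.9 to 10.94 and 10.22, a call lost without DKO 1 (2.63 to 3.68), and was named post hoc. Alox5 and Alox5ap, which start leukotriene synthesis, were not called, with changes of -0.35 and -0.21.

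Some genes of retinoid metabolism were among the calls. Aldh1a3, which oxidises retinal to retinoic acid, stood at 12.73 and 11.65 in control and 8.93 and 8.16 in DKO and fell by 3.65 (limma adjusted p = 0.0109), a call lost without DKO 2 (-4.18 to -3.11). Rdh10, which makes the retinal, fell by 3.29 from 12.24 and 11.22 to 8.97 and 7.9 (limma adjusted p = 0.0247), a call lost without either DKO array (-3.83 to -2.76). Crabp1, which binds retinoic acid in the cytoplasm, kept its call throughout and fell by 2.2 from 11.4 and 11.7 to 9.65 and 9.05 (SE 0.26, limma adjusted p = 0.00898). Rbp2, a retinol-binding protein, rose by 2.65 from 8.36 and 8.21 to 11.72 and 10.14, with changes from 1.86 to 3.44 with an array left out, a call that ended when either Ovol1 KO array was left out. Gprc5a, a membrane receptor first found as a gene induced by retinoic acid, fell by 2.28 from 12.65 and 12.3 to 9.95 and 10.44 (limma adjusted p = 0.00381).

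Of 176 conjugation and carbonyl enzymes 5 were called higher and 6 lower. Gstm6, a glutathione transferase, rose by 2.22 from 7.94 and 7.31 to 9.84 and 9.84 (SE 0.25, limma adjusted p = 0.00723). Its relatives Gstm1 and Gstm3 (post hoc) rose by 2.1 and 1.83, and the cross-talk between probe sets of these close copies was not tested. Cyp2w1 was the 1 call among 86 cytochrome P450 genes, from 7.84 and 7.72 to 11.38 and 10.02. It rose by 2.91 (SE 0.42, limma adjusted p = 0.0175), with changes from 2.23 to 3.59 with an array left out. Moxd1, a relative of dopamine beta-hydroxylase held in the endoplasmic reticulum, fell by 4.42 from 11.04 and 11.61 to 7.62 and 6.2 (SE 0.46, limma adjusted p = 0.00551). Ggct, which acts on gamma-glutamyl peptides of glutathione turnover, rose by 2.21 from 8.14 and 8.14 to 10.57 and 10.13 (limma adjusted p = 0.00431), and Hmgcll1, a lyase of ketone body synthesis, fell by 2.43. Both were named post hoc.

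The list of glycosyltransferases and mucins, which build and carry sugar chains, held calls in the lower direction only. Of its 107 measured genes 0 were called higher and 7 lower (6.54%), 4 of them throughout, while the list's median of -0.007 lay near that of all genes. Over all genes 0.943% were called higher and 2.26% lower, so few rises were likely in this list. Fut9, which adds the fucose of Lewis x, fell by 3.29 from 8.22 and 9.15 to 5.42 and 5.37 (SE 0.3, limma adjusted p = 0.00369). Mgat4a, which adds a branch to N-glycans, fell by 3.06 from 10.29 and 9.5 to 6.91 and 6.76 (limma adjusted p = 0.00551). Gcnt1, which starts the core 2 branch of O-glycans, fell by 2.75 from 8.31 and 8.08 to 6.01 and 4.88 (limma adjusted p = 0.0113), with changes from -3.32 to -2.19 with an array left out. Galnt3, an enzyme that starts O-glycans, fell by 1.94 from 11.29 and 11.5 to 9.03 and 9.87 (limma adjusted p = 0.0156), with changes from -2.36 to -1.53. In all 4 genes both Ovol1 KO arrays lay nearer the control arrays than the DKO arrays. This is not particular to them, since Ovol1 KO 1 lay nearer the control mean in 446 and Ovol1 KO 2 in 441 of the 451 genes called lower. B3galnt1, which makes globoside, lies outside that list and was named post hoc, rose by 2.56 from 7.08 and 7.01 to 9.81 and 9.41 (limma adjusted p = 0.00221).

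Vesicle traffic held 2 rises and 6 falls among 141 genes, with a median of -0.072, and 1 rise kept its call. This was Syt12, a synaptotagmin, which rose by 2.43 from 6.74 and 7.19 to 9.52 and 9.27 (SE 0.22, limma adjusted p = 0.00352). Of the falls, Rab15 (by 1.79) and Rab32 (by 1.78), small GTPases of endosomes and of lysosome-related organelles, lost their calls without DKO 1, with changes from -2.11 to -1.47 and from -2.1 to -1.46. Sorting genes named post hoc fell further. Ap1m2, the subunit of the epithelial AP-1B adaptor that sends cargo to the basolateral membrane, fell by 2.97 from 11.05 and 11.09 to 8.7 and 7.5 (SE 0.36, limma adjusted p = 0.00932), with changes from -3.57 to -2.37 with an array left out. Tmem30b, a subunit of lipid flippases, fell by 3.06 from 9.68 and 10.06 to 7.18 and 6.43 (limma adjusted p = 0.00422), and Mlph, which links organelles to myosin, by 3.06 from 9.66 and 9.25 to 6.54 and 6.26 (limma adjusted p = 0.00173). Tspan1, a tetraspanin of apical membranes and vesicles, fell by 4.6 from 9.55 and 9.33 to 4.84 and 4.84 (SE 0.17, limma adjusted p = 0.000177) and was among the 5 falls called with the Xist covariate.

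Calls among lysosome and autophagy genes were all lower and small in size. Of 43 measured, 0 were called higher and 5 lower (11.6%), with a median of -0.151, and 17 had an unadjusted p below 0.05 in either direction. Over all genes 0.943% were called higher and 2.26% lower, so few rises were likely in a list this small. Map1lc3b, the LC3 protein of autophagosomes, fell by 0.73 from 13.19 and 12.99 to 12.39 and 12.33, and Sqstm1, a cargo receptor of autophagy, by 1.01 from 13.09 and 12.72 to 11.83 and 11.95. Wipi1, Ctsz and Npc1 fell by 1.3, 1.07 and 1.05. All 5 calls were lost without either DKO array.

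**Figure D3:**
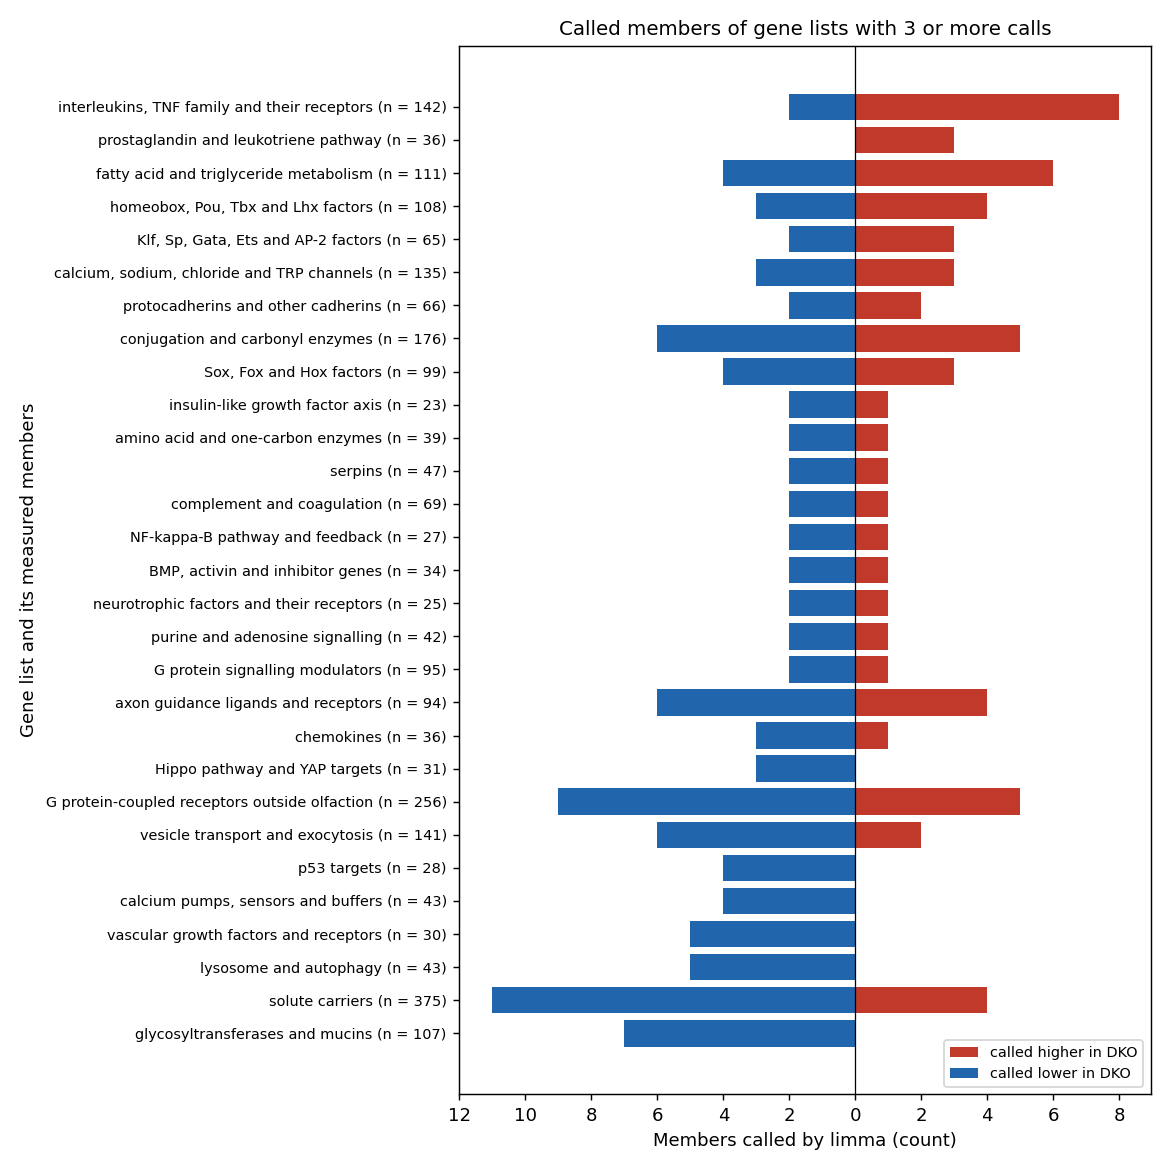
Number of genes called by limma in DKO (horizontal axis; higher to the right in red, lower to the left in blue) for the gene lists reported here with 3 or more calls, with the number of measured genes in brackets. Calls in the glycosyltransferase (7), lysosome (5) and vascular (5) lists were all lower, and the interleukin and TNF list had 8 of 10 calls higher. Over all genes 188 calls were higher and 451 lower.

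Cytokine genes were called in both directions. Of 142 interleukin, TNF family and receptor genes 8 were called higher (5.63%) and 2 lower (1.41%), with a median of -0.018. By separation and a 2-fold change alone, 9 were higher and 13 lower. Il33, a cytokine released by damaged epithelium, rose by 3.38 from 8.29 and 8.98 to 12.09 and 11.95 (SE 0.25, limma adjusted p = 0.00173). Il22ra2, a soluble decoy that binds interleukin-22, rose by 3.72 from 7.08 and 6.36 to 10.62 and 10.26 (SE 0.27, limma adjusted p = 0.00173). These were the 2 rises that kept their call throughout. The others were Il20rb (rise 2.08), Il18 (1.59), Il13ra1 (1.58), Ifngr1 (1.46), Il6ra (1.33) and Il6st (1.13), 5 of them receptor chains. Il13ra1, Ifngr1, Il6ra and Il6st were named post hoc. Each of these 6 lost its call without at least 1 array, with changes between 0.95 and 2.66. Among the 2 falls, Il1a, an alarm cytokine of keratinocytes, fell by 3.87 from 12.62 and 11.84 to 7.33 and 9.38 and lost its call without DKO 1 or either Ovol1 KO array (-4.89 to -2.85). Tnfrsf23, a TRAIL-binding decoy receptor, kept its call and fell by 1.78 from 12.42 and 12.13 to 10.56 and 10.42 (SE 0.19, limma adjusted p = 0.00603).

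Chemokine genes were called in both directions, and a scavenger receptor of other chemokines rose. Ackr4, which takes up and degrades CCL19, CCL21 and CCL25 without signalling through G proteins, rose by 3.98 from 6.69 and 6.84 to 10.76 and 10.73 (SE 0.17, limma adjusted p = 0.000276) and was called with the Xist covariate too. Of 36 chemokine genes 1 was called higher (2.78%) and 3 lower (8.33%), with a median of -0.018. Over all genes 0.943% were called higher and 2.26% lower. By separation and a 2-fold change alone, 1 chemokine gene was higher and 8 were lower. Ppbp, a platelet chemokine that draws neutrophils, fell by 4.82 from 9.61 and 10.11 to 5.69 and 4.38 (SE 0.43, limma adjusted p = 0.00329). Its neighbour Cxcl5 fell by 3.17 from 9.27 and 8.34 to 5.75 and 5.52, and Cxcl1 by 3.4 from 10.53 and 9.39 to 6.04 and 7.07. Cxcl14, a chemokine made by resting epithelia, rose by 1.52 from 10.66 and 9.95 to 11.92 and 11.74, a call lost without either DKO or either Ovol1 KO array (1.17 to 1.88). Cxcl5 and Cxcl1 also draw neutrophils, and both calls were lost without either DKO array, with changes from -3.64 to -2.71 and from -3.97 to -2.83.

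Antimicrobial and acute phase genes gave both signs. Nod1, an intracellular sensor of bacterial peptidoglycan, was the 1 call among 80 pattern receptors and rose by 1.99 from 7.26 and 7.27 to 9.45 and 9.06 (SE 0.21, limma adjusted p = 0.00551). Serpina3n, a secreted protease inhibitor of the acute phase, rose by 1.58 from 7.87 and 7.82 to 9.43 and 9.42 (limma adjusted p = 0.00751), and Orm1, an acute phase glycoprotein named post hoc, by 1.82 from 11.15 and 10.96 to 12.76 and 13.01 (limma adjusted p = 0.00196). Ltf, the iron-binding lactoferrin, fell by 4.1 from 8.82 and 8.78 to 4.53 and 4.89 (SE 0.23, limma adjusted p = 0.000729), and Wfdc18, a small secreted protein of the whey acidic family, by 4.53 from 10.24 and 8.8 to 5.08 and 4.9 (limma adjusted p = 0.00449). Ang2, here the angiogenin family ribonuclease and not angiopoietin, fell by 3.64 from 10.03 and 10.13 to 6.71 and 6.16 (SE 0.23, limma adjusted p = 0.00112) and was named post hoc. The cysteine protease inhibitors of the stefin family, Stfa3, Stfa2 and Csta3, rose by 4.84, 4.49 and 3.52. Their genes are near-identical copies whose signals may be shared.

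Tigit, known as an inhibitory receptor of T cells and natural killer cells, fell by 3.78 from 10.6 and 10.78 to 6.67 and 7.15 (SE 0.22, limma adjusted p = 0.000873). The lymphocyte markers Cd3e, Cd3g and Ptprc changed by 0.15, 0.03 and 0.0, with Ptprc at 6.97 and 6.69 in control and 6.75 and 6.92 in DKO. The natural killer receptor genes Klra8 and Klra6 fell by 1.79 and 1.27, from 6.2 and 6.14 to 4.29 and 4.47 and from 6.71 and 6.55 to 5.3 and 5.43. All 3 were named post hoc, and the source of their signal was not tested.

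Receptors coupled to G proteins held 5 rises and 9 falls among 256 measured, with a median of 0.055. F2rl2, the protease-activated receptor PAR3, fell by 5.34 from 11.09 and 11.26 to 6.39 and 5.29 (SE 0.37, limma adjusted p = 0.00161). Gpr50, an orphan relative of the melatonin receptors, fell by 4.48 from 9.63 and 9.51 to 5.17 and 5.01 (SE 0.19, limma adjusted p = 0.000276). Prokr2, a prokineticin receptor named post hoc, fell by 2.98 from 8.6 and 9.16 to 5.91 and 5.9 (SE 0.25, limma adjusted p = 0.00269). DKO levels of all 3 genes lay near the lower end of the scale. Downstream, Rgs3, which ends signalling by G protein alpha subunits, fell by 1.73 from 8.92 and 8.86 to 7.19 and 7.13 (SE 0.17, limma adjusted p = 0.00449), and Plcg2, a phospholipase C that acts below tyrosine kinases, by 2.49 from 9.68 and 9.94 to 7.6 and 7.05 (SE 0.24, limma adjusted p = 0.00449).

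Growth factor pathways held few calls each. Fgfr3, an FGF receptor expressed in keratinocytes, rose by 3.16 from 8.2 and 8.4 to 11.85 and 11.07 (SE 0.3, limma adjusted p = 0.00431), and it was the 1 call among 36 FGF ligands and receptors. Gpc3, a heparan sulphate proteoglycan of the cell surface that restrains growth, rose by 3.18 from 8.45 and 7.55 to 10.79 and 11.57 (SE 0.37, limma adjusted p = 0.00844). Of 23 genes of the insulin-like growth factor axis 1 was called higher and 2 lower, and binding proteins went in opposite directions. Igfbp4 rose by 3.39 from 7.84 and 7.19 to 11.19 and 10.62 (SE 0.36, limma adjusted p = 0.00596), while Igfbp7 fell by 2.99 from 13.52 and 13.58 to 10.44 and 10.67 (SE 0.11, limma adjusted p = 0.000177).

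Fst, the secreted inhibitor of activin, fell by 2.5 from 11.05 and 10.99 to 8.42 and 8.61 (SE 0.17, limma adjusted p = 0.00152). It was the 1 of the 3 called BMP and activin genes that kept its call, out of 34. Itgb6, the integrin subunit that frees latent TGF-beta at epithelial surfaces, fell by 3.63 from 11.82 and 11.72 to 7.91 and 8.38 (SE 0.19, limma adjusted p = 0.000673), and Wnt11, a Wnt ligand, by 3.27 from 9.32 and 10.1 to 6.63 and 6.25 (limma adjusted p = 0.00449). Ddr2, a receptor tyrosine kinase for fibrillar collagen, rose by 2.11 from 7.2 and 7.13 to 9.02 and 9.54 (limma adjusted p = 0.00943), and Gas6, the ligand of the TAM receptors, by 1.22 from 10.91 and 10.86 to 12.13 and 12.1 (limma adjusted p = 0.00551). Itgb6, Wnt11, Ddr2 and Gas6 were named post hoc. Tgfb2, a TGF-beta ligand in the Hippo and YAP list, fell by 2.41 from 9.91 and 9.95 to 7.46 and 7.58, a call lost without either DKO array (-2.47 to -2.35). That list of 31 held 0 called rises and 3 called falls (9.68%), with a median of -0.282. Over all genes 0.943% were called higher and 2.26% lower. In the list 18 genes had an unadjusted p below 0.05 in either direction, beside 2888 of all 19938. By separation and a 2-fold change alone, 0 of its genes were higher and 7 lower.

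Calls among vascular genes were all lower. Of 30 vascular growth factors and receptors 0 were called higher and 5 lower (16.7%), with a median of -0.206, and 2 kept their call. Over all genes 0.943% were called higher and 2.26% lower, so a list of 30 need not hold a rise. Flt1, the VEGF receptor 1, fell by 2.27 from 8.99 and 8.58 to 6.85 and 6.17 (SE 0.27, limma adjusted p = 0.0087). Thbs1, a matrix protein that inhibits vessel growth, fell by 1.29 from 13.01 and 12.97 to 11.405 and 11.998 (SE 0.18, limma adjusted p = 0.017), with changes from -1.59 to -0.99 with an array left out. Edn1, Edn2 and Pdgfd, which encode endothelins and a PDGF ligand, fell by 1.67, 1.25 and 1.73, and each call was lost without 4 or more of the arrays in turn. The endothelial marker Kdr, also a VEGF receptor, stood at 10.49 and 8.51 in control and 6.79 and 6.65 in DKO without being called (limma adjusted p = 0.0897). Of the other 4 endothelial markers, Pecam1 stood at 7.67 and 6.75 in control and 6.2 and 5.98 in DKO, a change of -1.12 that was not called, and Cdh5, Tek and Emcn changed by 0.09, -0.03 and 0.28.

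Axon guidance genes were called in both directions. Of 94 measured 4 were called higher and 6 lower, with a median of 0.056. All 6 falls were semaphorins or their neuropilin receptors. Nrp2 fell by 3.89 from 10.25 and 10.57 to 6.97 and 6.06 (SE 0.32, limma adjusted p = 0.00224), and Sema3c by 2.89 from 11.64 and 12.04 to 8.86 and 9.05 (SE 0.18, limma adjusted p = 0.00113), and these were the 2 that kept their call. Sema7a, Sema4f, Nrp1 and Sema3e fell by 3.18, 2.87, 2.47 and 2.18, and each of these calls was lost without at least 1 DKO array. The 4 rises were smaller, with Ephb6 by 1.37, Rgma by 1.26, Sema6d by 1.14 and Rgmb by 0.98. They were named post hoc, and each call ended when either DKO array or at least 1 of the control arrays was left out.

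Other genes known from nerve cells were also among the calls. Cdhr1, a cadherin of photoreceptors, rose by 3.57 from 7.32 and 7.37 to 11.04 and 10.79 (SE 0.23, limma adjusted p = 0.00118), and Tenm2, a teneurin adhesion protein named post hoc, by 1.76 from 8.7 and 8.59 to 10.46 and 10.35 (limma adjusted p = 0.00697). Sncg, gamma-synuclein, fell by 2.58 from 12.1 and 11.73 to 9.24 and 9.43 (SE 0.17, limma adjusted p = 0.00152). It was the 1 kept call of 2 among 97 synapse and neurotransmitter genes. Artn, a neurotrophic ligand, and Ret, the signalling receptor it uses, fell by 2.78 and 1.29. The call for Artn was lost without DKO 1 (-3.12 to -2.44) and that for Ret without any array but control 2 (-1.58 to -1.01).

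Adaptors inside the cell changed both ways. Cnksr1 and Cnksr2, scaffolds of Ras signalling named post hoc, fell by 3.67 and 3.37. Cnksr1 went from 10.05 and 10.06 to 6.12 and 6.66 (SE 0.22, limma adjusted p = 0.00111), and Cnksr2 from 9.21 and 9.64 to 6.75 and 5.37, with changes from -4.05 to -2.68 with an array left out. Dab2, an endocytic adaptor also named post hoc, rose by 2.89 from 6.75 and 6.26 to 9.37 and 9.43 (SE 0.22, limma adjusted p = 0.00173).

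**Figure D4:**
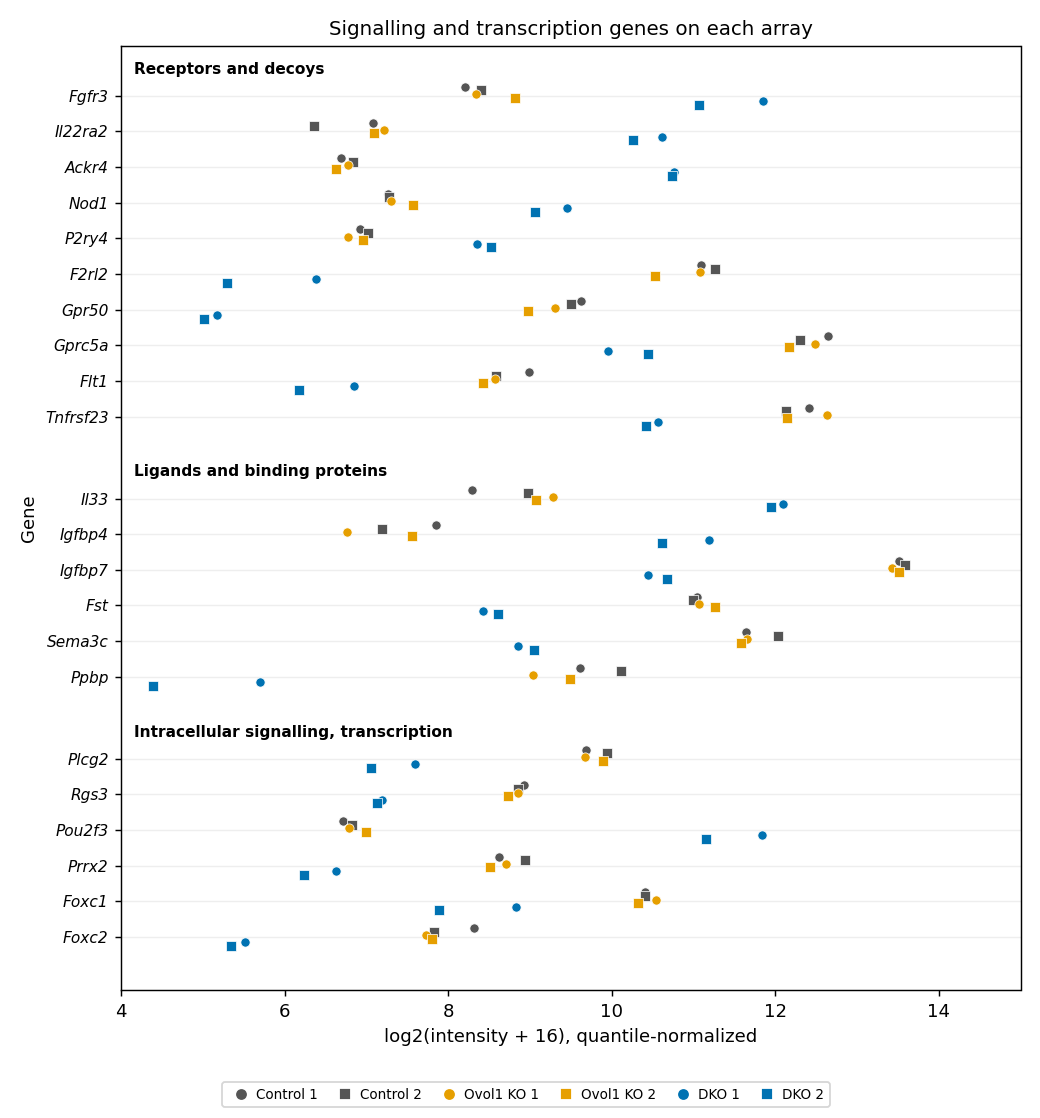
Levels of 22 signalling and transcription genes (horizontal axis, quantile-normalized log2(intensity + 16)) on each array, 1 row per gene, with circles for array 1 and squares for array 2 of control (grey), Ovol1 KO (orange) and DKO (blue). The blue points of Fgfr3, Il22ra2, Ackr4, Nod1, P2ry4, Il33, Igfbp4 and Pou2f3 lie to the right of the others, and those of the other 14 genes to the left.

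Transcription regulators were called in both directions, 3 higher and 4 lower of 99 Sox, Fox and Hox genes and 4 higher and 3 lower of 108 homeobox, Pou, Tbx and Lhx genes. Pou2f3, a POU factor of the suprabasal epidermis and of tuft cells, rose by 4.72 from 6.72 and 6.83 to 11.84 and 11.15 (SE 0.26, limma adjusted p = 0.000676). The other tuft cell genes did not follow as a group. Of 15 measured, Pou2f3 and Hpgds were called higher and Plcg2 lower, while Trpm5, Il25, Dclk1, Avil and Gnat3 changed by 0.03, -0.19, -0.1, -0.24 and -0.12 and were not called.

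Several of the factors that fell are known from mesenchyme and early development. Prrx2, a paired homeobox factor, fell by 2.34 from 8.62 and 8.94 to 6.63 and 6.24 (SE 0.22, limma adjusted p = 0.00369). Foxc2 fell by 2.64 from 8.31 and 7.82 to 5.51 and 5.35 (SE 0.2, limma adjusted p = 0.00185), and Foxc1 by 2.04 from 10.4 and 10.4 to 8.83 and 7.89 (SE 0.31, limma adjusted p = 0.0205), with changes from -2.52 to -1.57 with an array left out. Osr1, a zinc finger factor of embryonic mesoderm, fell by 2.92 from 8.74 and 8.33 to 5.55 and 5.69 (limma adjusted p = 0.00488), and Lin28b, an RNA-binding protein that blocks let-7 maturation, by 2.64 from 7.6 and 7.27 to 4.8 and 4.8 (SE 0.19, limma adjusted p = 0.00172). Both were named post hoc. The mesenchymal cadherin gene Cdh2 fell by 1.31, a call lost without any array but control 2 (-1.63 to -0.98). Other genes known from mesenchyme rose. Ddr2 and Zeb1 (both post hoc) rose by 2.11 and 3.61, and the Zeb1 call was not kept throughout. Postn, among the 20 largest rises, rose by 4.16 from 7.38 and 5.94 to 11.14 and 10.49 (SE 0.46, limma adjusted p = 0.00704). How far that call rested on 1 array is not given here.

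Further regulators named post hoc moved evenly across arrays. Mxd1, which opposes MYC during terminal differentiation, fell by 2.36 from 12.11 and 12.09 to 9.63 and 9.84 (SE 0.15, limma adjusted p = 0.00111). Plagl1, an imprinted zinc finger gene, rose by 2.0 from 9.8 and 9.7 to 11.66 and 11.84 (SE 0.17, limma adjusted p = 0.00296), and Jarid2, a partner of the Polycomb complex PRC2, by 1.57 from 10.27 and 10.52 to 12.02 and 11.91 (SE 0.15, limma adjusted p = 0.00431). Elf3, an ETS factor of epithelia that the naming rule included, fell by 1.67 from 11.12 and 10.88 to 9.46 and 9.19 (limma adjusted p = 0.00596). Hsp90aa1, the inducible HSP90 chaperone, fell by 0.81 from 12.99 and 13.04 to 12.25 and 12.16 (SE 0.08, limma adjusted p = 0.00539) and was likewise named post hoc.

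Several basic functions held no call. Among 91 respiratory chain genes, 60 ribosomal protein genes, 39 proteasome subunits, 66 histone genes, 80 cilium and centriole genes and 42 genes of MHC and antigen presentation, limma called 0. The numbers at an unadjusted p below 0.05 were 11, 5, 1, 13, 3 and 7, and the medians were 0.146, 0.117, 0.039, 0.138, 0.015 and -0.002. Over all 19938 genes 2888 had an unadjusted p below 0.05. Of 28 p53 targets 0 were called higher and 4 lower (14.3%). Of 34 immediate early genes 0 were called higher and 1 lower (2.94%), which was Dusp4, with a fall of 5.36. Over all genes 0.943% were called higher and 2.26% lower, so few rises were likely in lists this small. None of these 5 calls was kept throughout. By separation and a 2-fold change alone, 0 p53 targets were higher and 5 lower, and 0 immediate early genes were higher and 7 lower.

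Sequence upstream of the genes was read for the words bound by Ovol and Zeb proteins, since Zeb1 itself (post hoc) rose by 3.61 from 8.04 and 6.01 to 10.69 and 10.59 (SE 0.59, limma adjusted p = 0.0273). That call was lost without either DKO or either Ovol1 KO array, with changes from 2.6 to 4.63. The windows were 300 bases, from 250 before to 50 after each RefSeq start, on assembly GRCm38.p6. Windows were counted and not genes, so a gene with several starts counted more than once. The 435 windows of genes called lower came from 351 genes, the 176 of genes called higher from 140, and all 19177 from 15614. CACCTG or its reverse complement CAGGTG was present in 130 of 435 windows of genes called lower (29.9%), in 34 of 176 windows of genes called higher (19.3%) and in 19.6% of all 19177 windows. Among falls kept throughout it was present in 36 of 97 (37.1%), and outside the epithelial lists in 118 of 417 (28.3%). Windows of genes called lower were richer in G and C, with a median of 61.3% against 57.3% in all. In windows with 45 to 55% GC the word was in 31.7% of the called-lower set and 20.6% of all, in those with 55 to 65% in 36.1% and 22.0%, at 65% or more in 26.9% and 19.3%, and below 45% in 6 of 39 and 358 of 2763 windows. From the lowest to the highest GC class it was in 10.3%, 19.2%, 27.3% and 17.6% of called-higher windows. CCGTTA or TAACGG, the core read by Ovol zinc fingers, was in 2.99% of windows of genes called lower, 2.84% of those called higher and 3.11% of all. Among rises kept throughout it was in 3 of 46 windows (6.52%), among kept falls in 2 of 97 (2.06%). At 55 to 65% GC it was in 4 of 44 called-higher windows (9.09%) and 3.93% of all. In the other GC classes, from low to high, it was in 0 of 29, 0 of 52 and 1 of 51 called-higher windows. These shares are descriptions, and binding was not measured.

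The first 250 bases of 6 windows are printed 5′ to 3′ on the gene's strand, ending at the base before the start, with the words in capitals. The first 4 belong to the sorting gene Ap1m2, the flippase subunit gene Tmem30b, the tetraspanin gene Tspan1 and the O-glycan gene Galnt3, whose falls were kept throughout and which hold CACCTG or CAGGTG more than once. They lie at chr9:21312334-21312583, chr12:73546396-73546645, chr4:116167599-116167848 and chr2:66124794-66125043, all on the minus strand. Clca3b, at chr3:144849303-144849552 on the minus strand, and Igfbp4, at chr11:99040994-99041243 on the plus strand, hold CCGTTA or TAACGG and moved in opposite directions.
Ap1m2: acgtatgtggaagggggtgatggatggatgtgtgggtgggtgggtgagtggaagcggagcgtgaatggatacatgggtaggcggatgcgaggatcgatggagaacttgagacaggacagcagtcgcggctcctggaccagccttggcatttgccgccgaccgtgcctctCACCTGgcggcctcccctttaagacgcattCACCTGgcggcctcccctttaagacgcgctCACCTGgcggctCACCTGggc
Tmem30b: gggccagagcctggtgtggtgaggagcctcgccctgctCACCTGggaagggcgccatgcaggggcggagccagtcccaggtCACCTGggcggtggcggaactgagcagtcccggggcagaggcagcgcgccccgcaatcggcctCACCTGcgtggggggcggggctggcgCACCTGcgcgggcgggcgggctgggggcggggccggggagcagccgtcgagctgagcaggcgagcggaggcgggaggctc
Tspan1: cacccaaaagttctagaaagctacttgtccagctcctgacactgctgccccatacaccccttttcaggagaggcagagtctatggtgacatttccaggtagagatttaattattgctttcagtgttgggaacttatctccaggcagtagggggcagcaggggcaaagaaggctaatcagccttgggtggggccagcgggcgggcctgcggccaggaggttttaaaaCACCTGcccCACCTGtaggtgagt
Galnt3: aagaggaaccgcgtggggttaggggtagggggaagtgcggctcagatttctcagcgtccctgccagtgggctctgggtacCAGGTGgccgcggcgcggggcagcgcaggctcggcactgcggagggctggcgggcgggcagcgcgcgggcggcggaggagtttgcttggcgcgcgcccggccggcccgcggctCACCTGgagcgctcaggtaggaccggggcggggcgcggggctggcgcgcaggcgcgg
Clca3b: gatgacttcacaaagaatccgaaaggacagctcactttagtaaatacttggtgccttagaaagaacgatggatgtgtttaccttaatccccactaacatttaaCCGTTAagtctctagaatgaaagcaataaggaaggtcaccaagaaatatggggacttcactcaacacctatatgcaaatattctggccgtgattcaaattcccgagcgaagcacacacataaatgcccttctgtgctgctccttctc
Igfbp4: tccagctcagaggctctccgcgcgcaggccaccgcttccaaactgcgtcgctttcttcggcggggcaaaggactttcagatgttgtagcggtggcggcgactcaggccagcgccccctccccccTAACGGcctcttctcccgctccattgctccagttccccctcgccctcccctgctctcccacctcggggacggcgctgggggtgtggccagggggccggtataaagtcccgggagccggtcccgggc
Ap1m2 and Tmem30b have 4 copies of CACCTG each, with those of Ap1m2 at 81, 51, 21 and 9 bases before the start. In Tspan1 the 2 copies lie 24 and 15 bases before the start.

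MicroRNA genes were sparse among the calls. Of 12 microRNA genes known from epithelium, limma called 0, with 2 at an unadjusted p below 0.05. Mir181b-1 (post hoc) rose by 1.45 from 5.83 and 5.41 to 7.25 and 6.9 (SE 0.26, limma adjusted p = 0.0343), a call lost without control 2 or either DKO array (1.24 to 1.66). The probe set reads its precursor or host transcript and not the mature RNA. RefSeq places miR-181b-5p at chr1:137966650-137966673 on the plus strand, and the bases that pair with targets, 2 to 8, are in capitals.
mmu-miR-181b-5p: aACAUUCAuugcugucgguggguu

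Some called genes were neighbours in the genome. With 19919 genes placed in the RefSeq order, 46 runs of adjacent called genes held 96 genes, with 11 runs all higher, 25 all lower and 10 mixed. Higher runs included Il22ra2 with Ifngr1 and Pla2g2f with Pla2g2d, lower runs Ppbp with Cxcl5 and Adamtsl4 with Ecm1. Adamtsl4 and Ecm1, both secreted matrix proteins, fell by 2.56 and 2.43, Ecm1 from 12.86 and 12.83 to 10.67 and 10.16 (SE 0.17, limma adjusted p = 0.00152). Nod1 and Ggct, described above, formed a further higher pair. Ecm1 and the pairs were named post hoc, and no test is given for them.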

How the data were processed

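Affymetrix whole-transcript arrays measured RNA of cultured mouse keratinocytes, 2 arrays per group. Each deposited value is a linear intensity that the authors had summarised per probe set. Per the submitters' processing notes, Affymetrix Expression Console 1.1.1 was involved, and so was PLIER 2.0, with no role named; how background and arrays were adjusted was not found in the sources. With so few arrays the precision is low. The 35556 intensities per array were transformed to log2(intensity + 16), which makes changes at low levels look smaller. Because quartiles varied between arrays by up to 0.218, quantile normalization was applied. A single symbol was annotated for 21789 probe sets and several for 1621. From the former came 19938 genes, and where a gene had several probe sets (999 genes) that of highest mean level stood for it. A RefSeq table (GRCm38.p6) held 21698 of these probe sets' genes and changed 0 symbols.

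With limma 3.58.1 in R 4.3.3, group means were estimated from the 6 arrays together (trend in eBayes, 3 residual and 3.894 prior degrees of freedom) and p-values were adjusted by Benjamini-Hochberg across genes. The procedure was tested on simulated data. Over 20 draws it called 26% of added 2-fold and 77.6% of added 4-fold changes, with 4.55 false calls per draw. A gene or list without a call can thus hold changes of such sizes. The real arrays differed in ways not described for the draws. Same-numbered control and Ovol1 KO arrays deviated together (correlation 0.687), and a sex-linked split ran along the comparison. The recovered shares and the 4.55 false calls therefore describe the draws only and give no error rate for the genes called here. The comparison, the 67 gene lists and the naming rule were chosen with earlier results of these data known, and list counts are descriptions; 1 list is not reported here. The rule took Ovol1 and Ovol2, the 20 largest rises and 20 largest falls outside the epithelial lists among called genes without overlap (predicted genes and olfactory receptors skipped), up to 6 called members of each described list, and marker genes by level. Any further gene carries the words post hoc, chosen after its values were seen. Promoter and microRNA sequences came from RefSeq (GRCm38.p6). The alternatives were 16 other settings.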

Additional observations from a re-analysis of the deposited data

How the results depend on the processing

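The fit as reported called 188 genes higher and 451 lower. Within 1.5 times of these counts lay an offset of 1 (186 and 459) or 64 (188 and 436), the values as deposited (214 and 501), leaving out the dimmest 30% of genes (178 and 427), the mean over probe sets (192 and 446), only the 4 arrays compared (130 and 334), and eBayes without trend (174 and 399) or robust (191 and 443). Same-numbered arrays deviated together with correlations of 0.687 (control and Ovol1 KO), 0.151 (control and DKO) and 0.0875 (Ovol1 KO and DKO). The labels do not say that the numbers pair the arrays, and with the replicate block 301 genes were called higher and 768 lower. With the Xist covariate the counts were 3 and 5. Leaving out each array in turn gave 67 to 188 genes called higher and 189 to 547 lower, and 339 to 528 and 658 to 1015 without overlap. The Ovol2 log2 fold change, 0.04, ran from -0.31 to 0.39 and was negative without control 1 (-0.31) and without DKO 1 (-0.16). Of 244 named called genes 173 kept their call under the 9 settings other than the Xist covariate and the arrays left out.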
